A study of Mus musculus with 12 samples.

Results

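The genes described here are 9 members of the Nodal pathway, chosen by name: Nodal, Lefty1, Lefty2, Tdgf1, Gdf3, Foxh1, Cer1, Acvr2b and Smad7. They were picked out with results of these arrays in view, because Nodal and Lefty1 were lower in Jarid1b knockdown embryonic stem cells but higher in Jarid1b knockdown neural progenitors. Each of the 9 genes had a single probe set with a single annotated symbol, so all 9 entered the comparison, out of 18784 genes measured on the array. No filter on low values was applied, so no member was lost.

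The study measured RNA on 12 Affymetrix mouse gene arrays, 3 for each of 4 groups. The cell state and the shRNA were crossed. The state was embryonic stem cell (ESC) or neural progenitor cell (NPC), and the lentiviral shRNA was directed at Jarid1b (LKOJarid1b, called knockdown below) or scrambled (LKOScr, called control). The groups were knockdown ESC, control ESC, knockdown NPC and control NPC. All came from E14TG2a.4, a feeder-independent mouse ESC line kept on gelatin in serum with LIF, the cytokine that holds ESC undifferentiated. ESC were exposed to virus for 16 h and placed under puromycin 48 h after transduction, and NPC were made by a published differentiation protocol. Control cells thus carry the vector and its selection too. The labels name a single Jarid1b construct and do not say whether NPC were made from the selected ESC. Whether replicates were transduced or grown separately is not stated there, and the p-values therefore cover array-to-array spread that could be technical alone. Replicate numbers are those of the sample titles.

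Nodal is a secreted ligand of the TGF-beta superfamily. It binds a complex of activin receptors together with the membrane-anchored co-receptor Cripto, the product of Tdgf1, and the receptors phosphorylate Smad proteins that enter the nucleus and act with the transcription factor Foxh1. Nodal and the Lefty genes are themselves targets of the pathway, and because Lefty proteins block Nodal at the receptor they close a negative feedback loop. In mouse embryos the pathway maintains the epiblast, drives mesoderm and endoderm formation and sets the left-right axis, and its inhibition favours neural fates. ESC express much of this machinery without added ligand.

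RefSeq start regions (GRCm38.p6) were available for 4 of the 9 members. Those of Nodal, Tdgf1 and Acvr2b are shown because Nodal, the ligand, and Tdgf1, its co-receptor, had opposite mean shifts in knockdown ESC, while Acvr2b, a receptor, was the only member higher in NPC. Each is the 250 bases before the annotated start on the gene's own strand, 5′ to 3′, with CpG dinucleotides in capitals.
Nodal (chr10:61417722-61417971, plus strand): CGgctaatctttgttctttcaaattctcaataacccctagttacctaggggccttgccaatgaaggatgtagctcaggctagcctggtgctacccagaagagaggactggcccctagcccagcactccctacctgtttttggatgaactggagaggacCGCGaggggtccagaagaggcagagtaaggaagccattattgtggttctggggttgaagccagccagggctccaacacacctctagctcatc
Tdgf1 (chr9:110946159-110946408, minus strand): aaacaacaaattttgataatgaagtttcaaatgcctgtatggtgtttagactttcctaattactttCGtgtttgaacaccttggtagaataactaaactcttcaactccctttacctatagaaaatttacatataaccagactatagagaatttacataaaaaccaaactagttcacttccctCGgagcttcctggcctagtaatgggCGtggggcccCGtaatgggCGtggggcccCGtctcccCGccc
Acvr2b (chr9:119401928-119402177, plus strand): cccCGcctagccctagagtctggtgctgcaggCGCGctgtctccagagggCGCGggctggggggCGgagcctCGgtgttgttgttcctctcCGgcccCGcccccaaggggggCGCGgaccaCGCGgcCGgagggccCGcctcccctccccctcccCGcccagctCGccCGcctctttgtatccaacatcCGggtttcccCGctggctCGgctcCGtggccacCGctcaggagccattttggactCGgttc
The Nodal window held 3 CpG and was 53.2% G or C, the Tdgf1 window held 7 CpG and was 42.0% G or C, and the Acvr2b window held 24 CpG and was 72.8% G or C. Of 32851 such windows in the table, 37.8% had as few CpG as Nodal or fewer, 57.0% as few as Tdgf1 or fewer and 89.3% as few as Acvr2b or fewer. The letters AATNCACA, a form of the Foxh1 site, were searched on both strands and were in none of the 4 windows, against 3.18% of all windows. The letters CAGAC, which hold the Smad box, occurred once each in the Tdgf1, Cer1 and Acvr2b windows and not in that of Nodal, against 42.2% of all windows with at least 1 match. These are matches of letters and say nothing about binding.

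The values below are log2 levels as the authors deposited them, made with RMA, which corrects background, equalises the distribution of values between arrays and summarises the probes of a gene. Levels of different genes are not compared, since probe sets differ in brightness. Array medians lay between 7.70 and 7.79 and lower quartiles between 5.84 and 6.11, and a level under the latter is close to the background, where folds are rough. Arrays of a group correlated at 0.992 to 0.997 across genes. The targeted gene, listed under its current symbol Kdm5b, was lower in knockdown arrays of each state without overlap, at 10.68 ± 0.20 against 12.41 ± 0.14 in control ESC and at 10.47 ± 0.081 against 11.23 ± 0.078 in control NPC (SD, n = 3 each). The states carried their markers: in control cells all 12 pluripotency markers were lower and all 10 neural progenitor markers higher in NPC than in ESC by limma's test at an adjusted p under 0.05.

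In ESC the ligand Nodal and the antagonist Lefty1 were lower on every knockdown array than on any control array. Nodal lay at 10.53, 10.58 and 10.65 in knockdown ESC, against 11.18, 11.32 and 11.63 in control ESC. The knockdown arrays lay close together below the lowest control array, and the difference was -0.79 ± 0.15 (SE), a 1.73-fold lower level. Lefty1 lay at 10.06, 9.43 and 8.998 in knockdown ESC, against 10.66, 10.13 and 10.55 in control ESC. Its groups were separated by only a small gap, between knockdown replicate 1 and control replicate 2, and the difference was -0.95 ± 0.25 (SE), 1.93-fold lower. Because these differences were part of the reason for choosing the genes, no test of any member is given for the knockdown.

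The closest relative of Lefty1 did not share its shift. Lefty2, the second Lefty antagonist of the mouse, lay at 9.27, 7.86 and 7.69 in knockdown ESC, against 8.71, 7.43 and 7.85 in control ESC. The groups overlapped, and the difference of 0.28 ± 0.38 (SE) has a 95% interval from -0.54 to 1.11, wide enough to hold a fall as well as a rise. The Lefty genes are paralogs of similar sequence, and how far the probes of either also bind the other's RNA was not tested.

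The co-receptor, the second ligand and the nuclear partner had smaller differences in ESC, all without overlap. Tdgf1 lay at 13.22, 13.18 and 13.20 in knockdown ESC, against 12.99, 13.02 and 13.05 in control ESC. Its difference of 0.18 ± 0.19 (SE) is upward, opposite to Nodal, and its level is near the top of the arrays' range, whose highest value was 14.26. Gdf3, a ligand related to Nodal that also uses Cripto, lay at 10.81, 10.81 and 10.75 in knockdown ESC, against 11.05, 11.04 and 11.14 in control ESC (-0.28 ± 0.11, SE). Foxh1 lay at 9.81, 9.57 and 9.74 in knockdown ESC, against 9.98, 9.93 and 10.28 in control ESC (-0.36 ± 0.17, SE). Gdf3 and Foxh1 thus had the direction of Nodal at a smaller size. The SE pools the spread of the 4 groups, which is why it is far larger for Tdgf1 than the SD of 0.022 and 0.027 in knockdown and control ESC.

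The remaining members showed little difference in ESC. Acvr2b, an activin receptor that binds Nodal, differed by -0.05 ± 0.091 (SE, 95% interval -0.25 to 0.15), and Smad7, which encodes an inhibitory Smad induced by TGF-beta signals, by -0.05 ± 0.13 (SE, 95% interval -0.33 to 0.23). Cer1, a secreted antagonist of Nodal, lay between 5.19 and 5.38 in knockdown ESC and between 5.25 and 5.55 in control ESC, under the lower quartile of every array, so it cannot be told from an unexpressed gene. In all, 4 members were lower and 1 higher without overlap of the groups in ESC, and 4 overlapped. Over all genes, 24.2% did not overlap in that comparison, 13.6% lower and 10.6% higher.

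**Figure D1:**
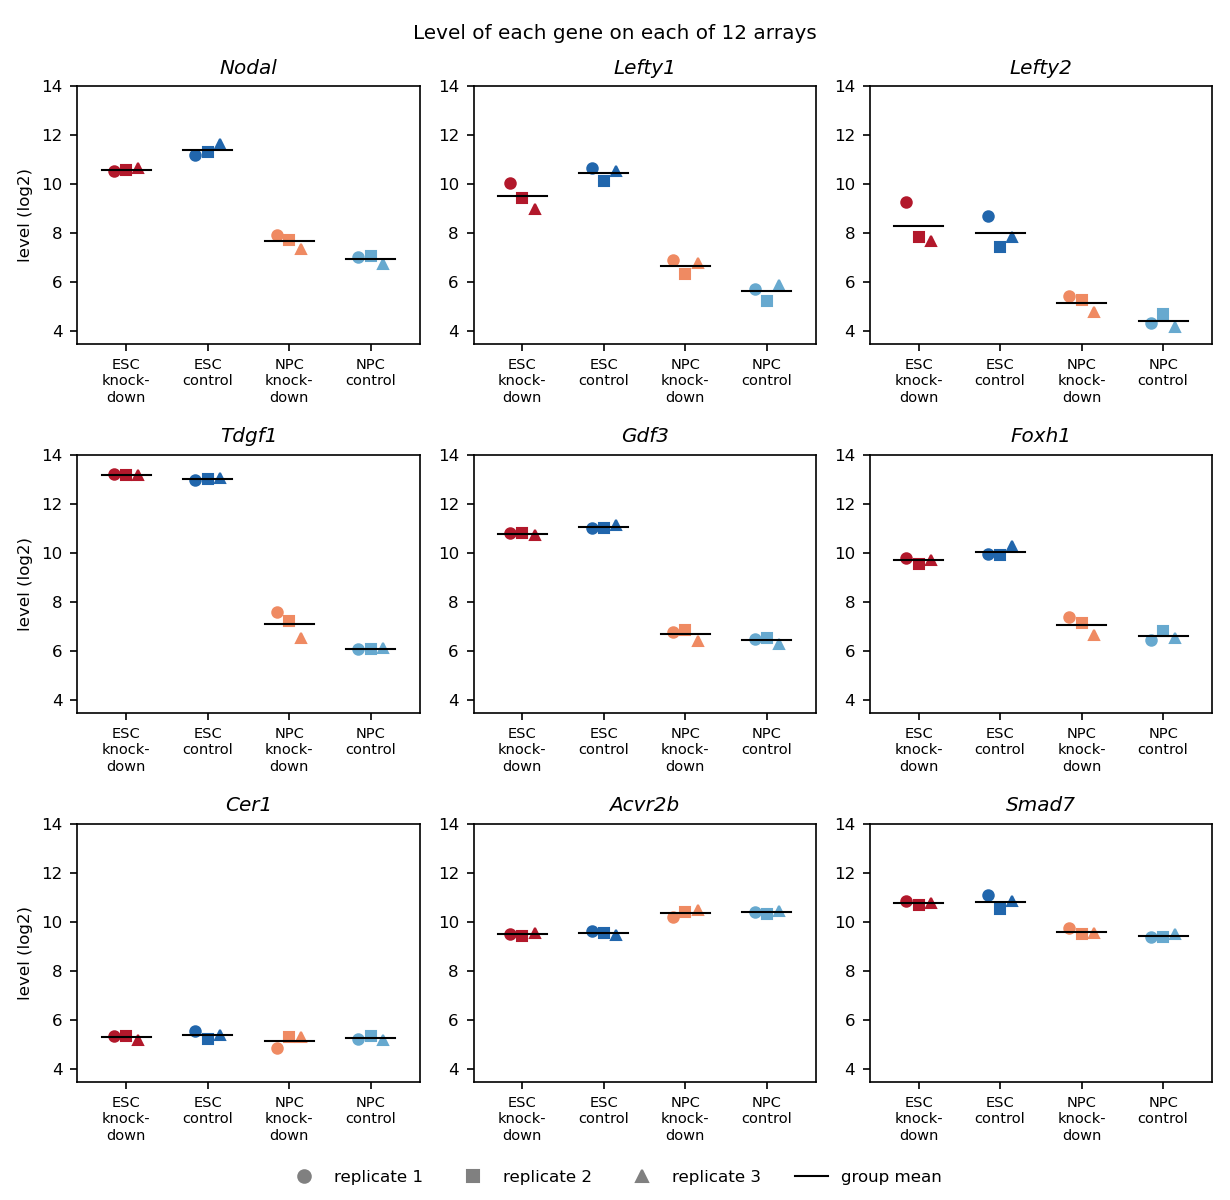
Log2 level of each of the 9 genes (vertical axis) on each array, by group, with 1 symbol per replicate number and a bar at the group mean. Nodal and Lefty1 lie lower in knockdown than in control ESC and higher in knockdown than in control NPC, while Cer1 stays between 4.87 and 5.55 on all 12 arrays.

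In NPC the same genes lay at far lower levels, and there knockdown arrays were the higher ones. Nodal lay at 7.91, 7.74 and 7.37 in knockdown NPC, against 7.01, 7.05 and 6.74 in control NPC. The groups did not overlap, and the difference was 0.74 ± 0.15 (SE), 1.67-fold. Lefty1 lay at 6.90, 6.33 and 6.78 in knockdown NPC, against 5.74, 5.23 and 5.91 in control NPC, again without overlap (1.04 ± 0.25, SE, 2.06-fold). Control replicates 1 and 2 of Lefty1 lie under their arrays' lower quartiles and replicate 3 just above, so the size is rough.

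Lefty2 and Tdgf1, which did not have the direction of Nodal in ESC, did so in NPC. Lefty2 lay at 5.43, 5.28 and 4.80 in knockdown NPC, against 4.35, 4.69 and 4.20 in control NPC (0.76 ± 0.38, SE, 95% interval -0.07 to 1.58). All 6 values are under the arrays' lower quartiles. Tdgf1 lay at 7.59, 7.25 and 6.54 in knockdown NPC, against 6.09, 6.10 and 6.14 in control NPC (1.02 ± 0.19, SE, 2.03-fold). The control arrays were nearly equal and the knockdown arrays spread widely, with replicate 3 nearest to the controls.

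Gdf3 and Foxh1 were higher in mean, with overlap. Gdf3 lay at 6.80, 6.87 and 6.43 in knockdown NPC, against 6.51, 6.56 and 6.29 in control NPC (0.25 ± 0.11, SE). Foxh1 lay at 7.41, 7.14 and 6.66 in knockdown NPC, against 6.47, 6.84 and 6.54 in control NPC (0.46 ± 0.17, SE). In each case knockdown replicate 3 lay among the controls. Cer1 (-0.09 ± 0.12), Acvr2b (-0.03 ± 0.091) and Smad7 (0.18 ± 0.13, all SE) overlapped between knockdown and control NPC. In all, 4 members were higher without overlap and 0 lower, where 14.2% of all genes did not overlap, 8.30% higher and 5.91% lower.

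Only Nodal and Lefty1, the genes for which the group was chosen, were lower on every knockdown ESC array and higher on every knockdown NPC array than on the controls of the same state. This was so for 1.16% of all genes (218). Tdgf1 was the only member higher without overlap in both states, as were 1.43% of all genes. None of the 9 was lower without overlap in both (1.07% of all genes), and none was higher in ESC and lower in NPC (0.463%). The knockdown effect in NPC exceeded that in ESC by 1.53 ± 0.21 for Nodal, by 1.99 ± 0.36 for Lefty1, by 0.84 ± 0.26 for Tdgf1, by 0.82 ± 0.24 for Foxh1, by 0.53 ± 0.16 for Gdf3 and by 0.48 ± 0.54 for Lefty2 (SE). For Smad7 (0.22 ± 0.18), Acvr2b (0.02 ± 0.13) and Cer1 (0.00 ± 0.18, SE) the 95% interval holds 0, as it does for Lefty2 (-0.69 to 1.65). These differences are descriptions, since they follow from the comparisons by which the genes were chosen.

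**Figure D2:**
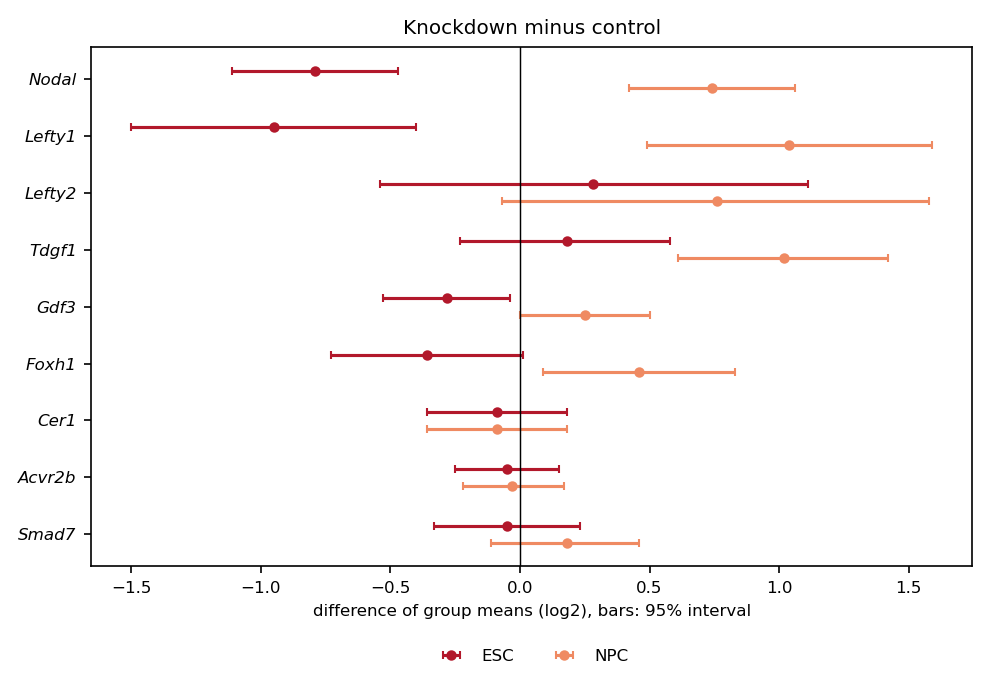
Difference of group means on the log2 scale, knockdown minus control, for each gene in ESC and in NPC, with 95% intervals from the fit to all 12 arrays. Nodal and Lefty1 lie left of 0 in ESC and right of 0 in NPC, Tdgf1 at 0.18 and 1.02, and Acvr2b and Cer1 near 0 in both states.

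The mean of pluripotency markers was also higher in knockdown than in control NPC. The mean level of 12 such markers was 8.18, 7.86 and 7.28 in knockdown NPC (replicates 1, 2 and 3), against 6.39, 6.97 and 6.92 in control NPC, and their summed level on the linear scale was 2871 to 5473 against 1538 to 2152. In mean all 12 were higher in knockdown NPC, and 5 of 12 passed limma's test (adjusted p under 0.05), where 0.820% of all genes were called higher. In ESC the summed level was 61084 to 62142 with knockdown and 57796 to 59532 in controls. Zfp42 and Dppa4 lay under the lower quartiles in NPC of either kind, as did Dppa2 in control NPC.

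Knockdown NPC replicate 3 had the lowest marker mean of its group and the lowest value of 11 of the 12 markers and of 5 of the 9 members. Lefty1 instead was lowest in knockdown NPC replicate 2 (6.33). In control NPC replicate 1 had the lowest marker mean. That array was the lowest of its group for Tdgf1, Foxh1 and Smad7, and not for Nodal, Lefty1 or the other members. Nodal, Lefty2, Gdf3 and Cer1 were lowest in control NPC replicate 3, whose marker mean was 6.92. Without knockdown NPC replicate 3 the differences in NPC were 0.89 for Nodal, 0.99 for Lefty1, 0.94 for Lefty2, 1.31 for Tdgf1, 0.38 for Gdf3 and 0.66 for Foxh1. In that setting 6 members did not overlap between the groups. With fewer arrays groups of any gene separate more easily, and the share over all genes is not given for it. The count of 6 is therefore no result about the members. The mean of 6 endothelial markers was 5.94 to 6.41 in knockdown NPC against 7 to 7.96 in control NPC. By the test 4 of the 6 were lower, where 0.213% of all genes were called lower. Of these 4, Cd93 averaged 5.36 in knockdown NPC, under the arrays' lower quartiles, and Emcn (6.16) and Tie1 (6.33) lay just above them. Among 10 neural progenitor markers 0 passed it in either direction, with mean levels of 11.19 to 11.23 against 11.19 to 11.40. The part of these marker differences in the values of Nodal, Lefty1 and Tdgf1 was not tested, and in bulk RNA a change in the share of cells of a type and a change of RNA per cell cannot be told apart. In ESC 0 of the 12 pluripotency markers passed the test in either direction. Of 10 neural progenitor markers 2 were higher (Ncam1 and Msi1) and 3 lower (Pax6, Slc1a3 and Cdh2) in knockdown ESC, and of 8 neuronal markers 0 were higher and 3 lower (Tubb3, Map2 and Nefl), where 1.84% of all genes were called higher and 3.37% lower. The mesoderm marker Tbx6 and the endothelial marker Pecam1 were higher, each the only call among 6 markers of its list, and 0 passed among the glial, endodermal and fibroblast markers.

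**Figure D3:**
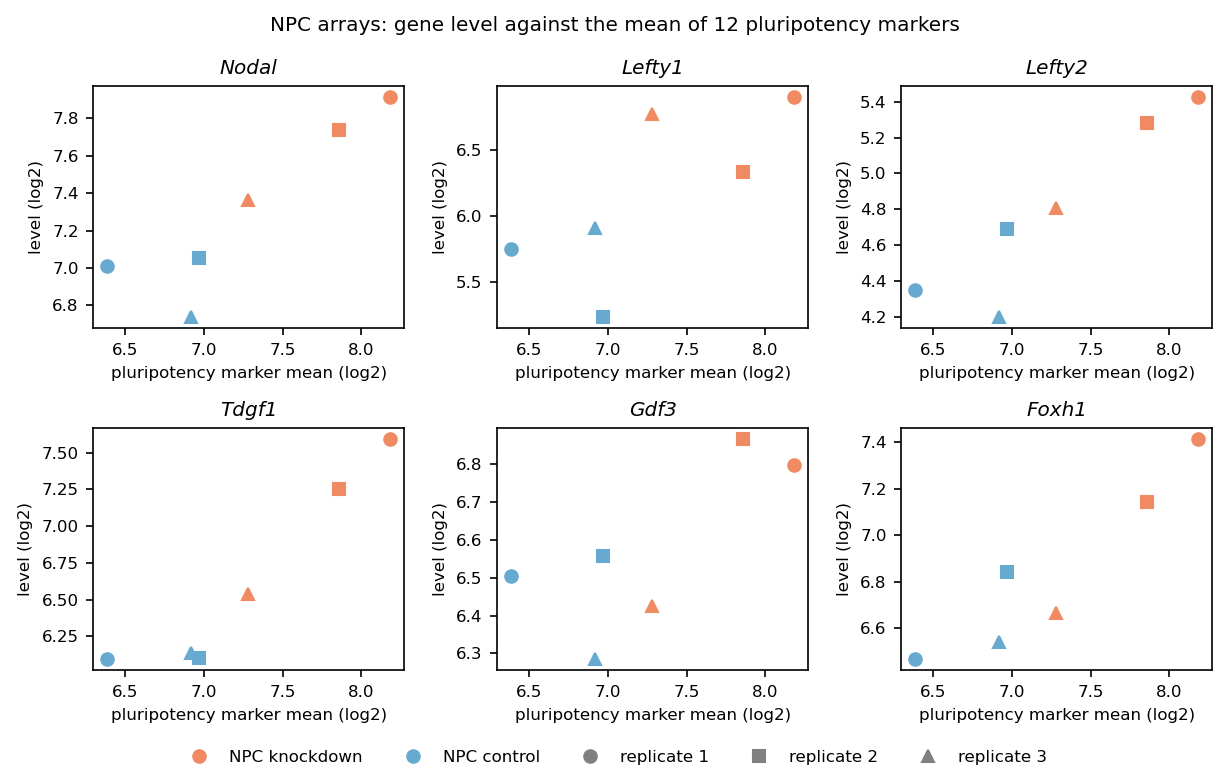
Level of 6 members (vertical axis, log2) against the mean log2 level of 12 pluripotency markers (horizontal axis) on the 6 NPC arrays, coloured by group with 1 symbol per replicate number; axes do not start at 0. Knockdown arrays have marker means of 7.28 to 8.18 and control arrays of 6.39 to 6.97, and within the knockdown group replicate 3 has the lowest marker mean.

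The passage from ESC to NPC was not used to choose the genes, although it shares arrays with the comparisons that were. In control cells 8 of the 9 members passed limma's test, 7 lower and 1 higher in NPC, where 48.6% of all genes were called (25.1% lower and 23.5% higher). The same 8 did not overlap between the states, against 52.3% of all genes (27.8% lower and 24.5% higher). The median difference was -3.58 over the members and -0.042 over all genes. Tdgf1 had the greatest fall among the members, to 6.11 ± 0.022 in NPC against 13.02 ± 0.027 in ESC (SD, n = 3 each), a difference of -6.91 ± 0.19 (SE, limma adjusted p = 1.46e-11) or 120-fold. The ligands and the Lefty antagonist fell together with it.

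Lefty1 averaged 5.63 ± 0.35 in control NPC and 10.45 ± 0.28 in control ESC (SD, n = 3 each), a difference of -4.82 ± 0.25 (SE, limma adjusted p = 4.90e-09). Gdf3 differed by -4.62 ± 0.11 (SE, limma adjusted p = 9.65e-12) and Nodal by -4.44 ± 0.15 (SE, limma adjusted p = 8.50e-11). Lefty2 (-3.58 ± 0.38) and Foxh1 (-3.45 ± 0.17, SE) fell as well, with no overlap of the groups. The NPC values of Lefty1 and Lefty2 are near the background and those of Tdgf1 near the lower quartiles, so these sizes are rough.

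The intracellular inhibitor and the receptor behaved otherwise. Smad7 fell by far less, to 9.44 ± 0.076 in control NPC against 10.83 ± 0.29 in control ESC (SD, n = 3 each), a difference of -1.39 ± 0.13 (SE, limma adjusted p = 9.80e-07). Acvr2b lay at 10.42, 10.34 and 10.46 in control NPC, against 9.63, 9.55 and 9.50 in control ESC, and rose by 0.85 ± 0.091 (SE, limma adjusted p = 3.51e-06). Cer1 was not called (-0.14 ± 0.12, SE, limma adjusted p = 0.399).

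In knockdown cells 8 of the 9 members again passed the test, 7 lower and 1 higher in NPC, where 48.8% of all genes were called (25% lower and 23.8% higher). The groups of 8 members did not overlap, against 62.4% of all genes (33.9% lower and 28.5% higher). The members' median difference was -2.83, against -0.068 over all genes. The differences between knockdown and control cells in this step are, by arithmetic, the differences of the knockdown effects given above, so they restate the values by which the genes were chosen and are no further result. Side by side, the step between the states in knockdown against control cells was -2.91 against -4.44 for Nodal, -2.83 against -4.82 for Lefty1, and -6.07 against -6.91 for Tdgf1. For Gdf3 it was -4.09 against -4.62, for Foxh1 -2.63 against -3.45, for Lefty2 -3.10 against -3.58 and for Smad7 -1.17 against -1.39. As folds, NPC lay 7.53-fold under ESC for Nodal with knockdown and 21.7-fold in controls, and for Lefty1 7.10-fold and 28.3-fold. Acvr2b was higher in NPC by 0.87 ± 0.091 with knockdown and by 0.85 ± 0.091 in controls (SE). Cer1 was not called (-0.14 ± 0.12, SE, limma adjusted p = 0.367).

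**Figure D4:**
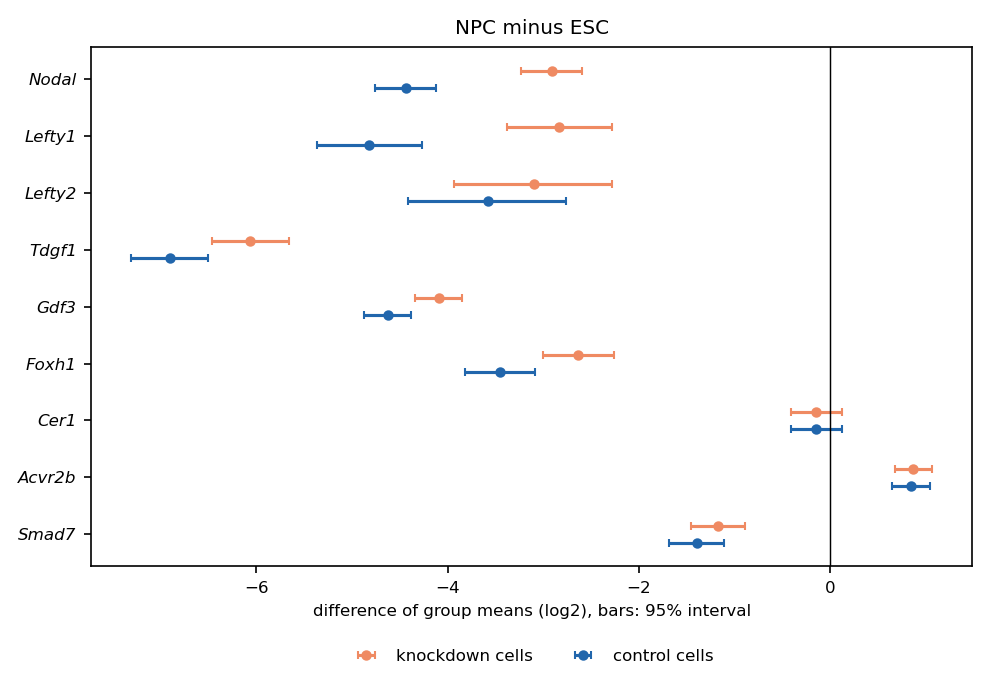
Difference of group means on the log2 scale, NPC minus ESC, for each gene in knockdown and in control cells, with 95% intervals from the fit to all 12 arrays. Tdgf1 has the lowest values, -6.07 and -6.91, and Acvr2b alone lies right of 0. The gap between knockdown and control points of a gene is the difference of its knockdown effects, 1.53 for Nodal and 1.99 for Lefty1, and follows from the choice of genes.

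The order of the 4 groups differed between members. For Nodal and Lefty1 it was, from high to low, control ESC, knockdown ESC, knockdown NPC and control NPC, with no overlap between any neighbours. Within each state that order is what these genes were chosen for, so it is no further result. Gdf3 and Foxh1 had the same order, but their NPC groups overlapped. In Tdgf1 the ESC groups were exchanged, with knockdown first and no overlap, and in Lefty2 they were exchanged with overlap. Smad7 separated only ESC from NPC, Acvr2b separated NPC above ESC, and in Cer1 every neighbouring pair overlapped.

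The 5 genes whose levels followed Nodal most closely over the 12 arrays were Plcg2, Atf7ip2, Arhgef16, Pla2g10 and Foxh1, with Pearson r from 0.994 to 0.996. For Lefty1 they were Plekhf2, Glud1, Pmm1, Arhgef16 and Emb, with r from 0.989 to 0.992. Plcg2, a phospholipase gene, differed by -0.41 on knockdown in ESC, by 0.60 on knockdown in NPC and by -2.70 between NPC and ESC in controls. These have the signs of Nodal, but Plcg2 was picked by its r with Nodal on the same arrays, so they are no separate result. The arrays form separate clusters of ESC and NPC, so r mostly reflects the step between the states, and it is given only as a measure of likeness. Among the members, r with Nodal was 0.994 for Foxh1, 0.988 for Gdf3, 0.983 for Tdgf1, 0.979 for Lefty1, 0.964 for Smad7, 0.939 for Lefty2, 0.411 for Cer1 and -0.969 for Acvr2b.

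Of the rest of the pathway, 60 genes were measured in lists by role. In knockdown ESC 1 rose and 2 fell of 60, which is 5% against 5.21% of all genes (1.84% higher and 3.37% lower), with a median difference of 0.038 against 0.017. The share called is thus close to that of all genes. Fgf5, a growth factor gene of the early epiblast, lay at 7.71, 8.29 and 7.49 in knockdown ESC, against 8.33, 9.02 and 9.37 in control ESC, and fell by 1.08 on the log2 scale (SE 0.24, limma adjusted p = 0.0212). Skil, which encodes a Smad repressor that TGF-beta signals induce, lay at 9.79, 9.51 and 9.52 in knockdown ESC, against 10.07, 10.29 and 10.38 in control ESC, and fell by 0.64 (SE 0.14, limma adjusted p = 0.0210). Ltbp4, a matrix protein gene that binds latent TGF-beta, rose by 0.36 ± 0.080 (SE, limma adjusted p = 0.0233), at 11.10, 11.09 and 11.11 in knockdown ESC against 10.79, 10.83 and 10.61 in control ESC.

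These 3 calls rest on few arrays. From the 6 ESC arrays alone Skil was called (adjusted p = 0.0338), and Fgf5 (0.0719) and Ltbp4 (0.0773) were not. Fgf5 lost its call without control ESC replicate 2 or 3 (adjusted p = 0.0646 and 0.112) or knockdown ESC replicate 1 or 3 (0.0683 and 0.100). Skil lost it without control ESC replicate 2 or 3 (0.0618 and 0.117) or knockdown ESC replicate 2 or 3 (0.0785 and 0.0919). Ltbp4 lost it without control ESC replicate 3 (0.131) or knockdown ESC replicate 1, 2 or 3 (0.0638, 0.0674 and 0.0871). Of the 10 target genes 0 rose and 1 fell, with a median difference of -0.26, and of the 18 Smads and cofactors 0 rose and 1 fell. Of the 12 genes of ligand processing and extracellular antagonists 1 rose and 0 fell, and none of the 10 ligands or 10 receptors passed limma's test. Before adjustment 16 of the 60 genes had a limma p under 0.05. They were 4 targets, 3 Smads and cofactors, 5 genes of processing and antagonists, 2 ligands and 2 receptors. The 4 targets were all lower in mean in knockdown ESC. The share of all genes under that unadjusted limit is not given here.

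In knockdown NPC 0 of the 60 passed limma's test in either direction, where 1.03% of all genes were called. Before adjustment 8 had a limma p under 0.05, a count for which the share of all genes is not given. The median difference was -0.055 over the 60 genes and 0.0037 over all genes. Skil lay at 9.87, 9.59 and 9.64 in knockdown NPC, against 9.29, 9.13 and 9.63 in control NPC, with overlap of the groups. The difference of its knockdown effects, NPC minus ESC, was 0.99 ± 0.20 (SE, limma adjusted p = 0.0362), and that of Ltbp4 was -0.59 ± 0.11 (SE, limma adjusted p = 0.0314). They were the only pathway genes outside the members called in this test, 2 of 60 or 3.33%, against 1.42% of all genes (1.18% higher and 0.245% lower). Each of the 12 arrays except control ESC replicate 1 and control NPC replicate 3 ended at least 1 of the calls when left out, with an adjusted p of up to 0.103 for Skil and 0.0907 for Ltbp4.

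Between the states the rest of the pathway moved in both directions. In control cells 29 genes rose and 18 fell of 60 in NPC, or 78.3% called against 48.6% of all genes (23.5% higher and 25.1% lower). With knockdown 25 rose and 13 fell, or 63.3% against 48.8% of all genes (23.8% higher and 25% lower). In the list of ligands and co-receptors, 5 rose and 2 fell of 10 in control cells. Gdf11, a growth factor of neural and axial development, rose by 2.89 ± 0.17, Tgfb3 by 2.17 ± 0.16 and Tgfb2 by 1.79 ± 0.31, while the activin subunit gene Inhbb fell by 1.56 (SE 0.21). Tgfb1 fell by 0.78 (SE 0.24, adjusted p = 0.0133), which was lost with replicates paired over the 6 control arrays (0.0548) and without control ESC replicate 1 (0.0663) or control NPC replicate 1 (0.0621).

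Of the 10 receptor genes 5 rose and 3 fell in control NPC, and 4 rose and 3 fell with knockdown. Tgfbr1, a type I receptor of TGF-beta, rose by 2.20 ± 0.10, the activin receptor gene Acvr2a by 2.13 ± 0.094 and Acvr1 by 1.57 ± 0.097, alongside Acvr2b. Acvr1b, the main type I receptor of Nodal, fell by 0.56 (SE 0.11), and the endoglin gene Eng, a co-receptor of endothelium and other cells, fell by 3.03 (SE 0.22). Of the 12 genes of ligand processing and antagonists 6 rose and 3 fell. The latency protein gene Ltbp1 rose by 1.89 ± 0.11 and the activin antagonist follistatin, Fst, by 1.04 ± 0.22, and Ltbp4 fell by 1.26 (SE 0.080).

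Smads and cofactors had 10 higher and 3 lower of 18 in control NPC. Smad5, which carries BMP signals, rose by 1.67 ± 0.099 and Smad3, which carries Nodal and activin signals, by 1.36 ± 0.11. The repressor gene Tgif1 fell by 1.30 (SE 0.092) and Skil by 0.90 (SE 0.14).

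All 10 target genes passed the test in control cells, 3 higher and 7 lower in NPC. Otx2, a head and epiblast transcription factor, fell by 4.90 (SE 0.19), lying at 6.59, 6.01 and 6.13 in control NPC against 11.05, 11.21 and 11.17 in control ESC. The mesendoderm factors Eomes and Mixl1 fell by 2.26 (SE 0.21) and 0.98 (SE 0.19). Lhx1, a factor of early mesendoderm that neurons also express, rose by 3.87 ± 0.12 and the endoderm factors Sox17 and Foxa2 by 0.74 ± 0.11 and 0.43 ± 0.094. In knockdown cells 3 target genes rose and 2 fell of 10. Otx2 fell by 4.11 (SE 0.19) and Eomes by 1.20 (SE 0.21) in knockdown cells, while Mixl1 was not called. Whether target genes differ between control and knockdown cells in this step was tested gene by gene, and 0 of 10 passed limma's test of the difference. Before adjustment 5 had a limma p under 0.05. The share of all genes under that limit is not given, so the count of 5 is no result about the targets.

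**Figure D5:**
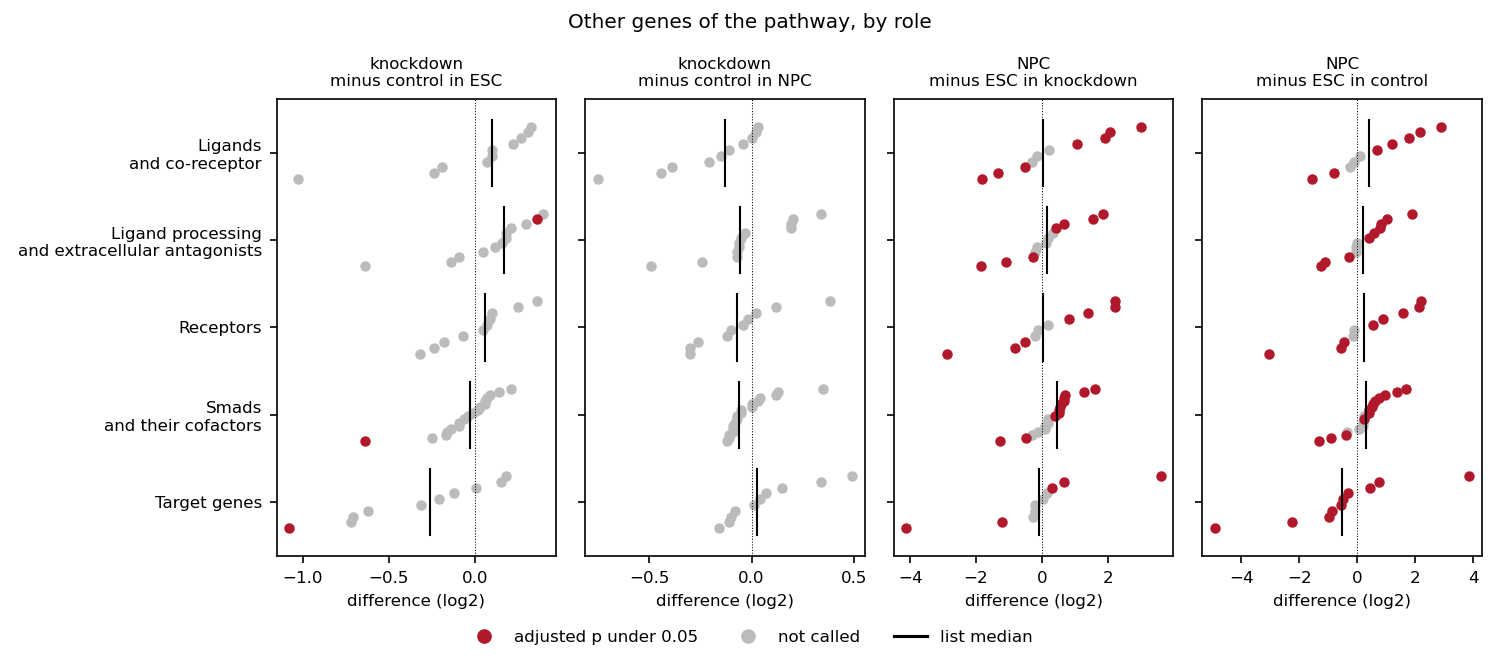
Log2 differences (horizontal axis) of 60 pathway genes that are not among the 9, by role, in the knockdown comparisons in ESC and NPC and in the NPC minus ESC comparisons in knockdown and control cells; red points passed the test at an adjusted p under 0.05, grey points did not, and vertical bars are list medians. Horizontal scales differ between panels, and red points number 3 and 0 in the knockdown panels and 38 and 47 in the state panels.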

How the data were processed

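RNA of 12 samples was hybridised to Affymetrix mouse gene arrays. The authors deposited log2 values, 1 per probe set and array, and the tools named per the submitters' processing notes are affy, RMA and limma. Their versions and the genome build were not found in the labels. The platform annotation gave 18786 of the 21212 probe sets a single symbol and 6 several, while 2420 are absent from it and unnamed here. A RefSeq table, joined on Entrez gene ID, matched 18775 and altered 0 symbols, and the probe set with the highest mean stood for a gene, which gave 18784 genes.

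A mean per group was estimated for every probe set from the 12 arrays with limma 3.58.1 in R 4.3.3 (lmFit, contrasts.fit, eBayes, 8 residual and 4.81 prior degrees of freedom). Adjusted p-values are limma's, two-sided, adjusted by the Benjamini-Hochberg method across 18784 genes. A gene is called, or said to rise or fall, at an adjusted p under 0.05. SE and 95% intervals come from this fit. The number of arrays limits the precision. On simulated data only limma's calls for NPC minus ESC in control cells were checked.

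The members, gene lists and markers were chosen with earlier results of these data known. Named pathway genes were taken, per list and direction, from the 4 called with the smallest p (knockdown) or greatest change (states). The lists hold ligands, processing and antagonists, receptors, Smads and cofactors, and targets; 60 of 65 entries were measured. Marker lists covered pluripotent cells, neural progenitors, neurons, glia, mesoderm, endoderm, endothelium and fibroblasts. Of control NPC and ESC arrays, those of the same replicate number deviated from their group means together (r = 0.266, 0.286 and 0.334). Equal numbers may thus be pairs in that comparison, a reading from the data. The fit above takes no account of pairs, so its SE, intervals and p-values are unpaired. Pairing entered only in the alternative with a replicate block. In no other comparison did all 3 pairs exceed 0.1. Start regions are RefSeq's (GRCm38.p6). Alternatives were other normalizations, a low-value filter, variance models, array weights, probe set means, arrays of a contrast alone, a replicate block, a stricter threshold and leaving out each array.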

Additional observations from a re-analysis of the deposited data

Results flagged for a closer look

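Nodal and Lefty1 were lower on every knockdown ESC array and higher on every knockdown NPC array than on the controls of the same state. The knockdown effect in NPC exceeded that in ESC by 1.53 ± 0.21 for Nodal and by 1.99 ± 0.36 for Lefty1 (SE). These differences were not tested, because the genes were chosen for them.

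Outside the 9 members, the knockdown effects in NPC and ESC differed by limma's test for 2 pathway genes. The difference was 0.99 for Skil (adjusted p = 0.0362), whose mean was 0.64 lower than control in ESC, and -0.59 for Ltbp4 (adjusted p = 0.0314), whose mean was 0.36 higher than control in ESC. Leaving out any of 10 of the 12 arrays ended at least 1 of these calls, and with a replicate block that of Ltbp4 was lost (adjusted p = 0.0513).

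The targeted gene, Kdm5b, was also lowered unequally. Knockdown lowered it by a log2 difference of -1.72 in ESC and -0.76 in NPC, and the effects differed by 0.96 (NPC minus ESC, SE 0.16, limma adjusted p = 0.0172), with every knockdown array under the controls of its state.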

How the results depend on the processing

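The 8 calls among 9 members between the states held in control and in knockdown cells under every alternative, including a replicate block and each array left out; the low-value filter removes Cer1. Cer1, not called, changed sign without knockdown NPC replicate 1 (0.00, against -0.14 with all arrays, and -0.22 as the lowest, without knockdown NPC replicate 2). With arrays left out in turn, Nodal's knockdown difference ranged from -0.89 to -0.66 in ESC and from 0.62 to 0.89 in NPC. Lefty1's ranged from -1.24 to -0.70 in ESC and from 0.84 to 1.21 in NPC. In these settings 5 to 6 members in ESC and 4 to 6 in NPC had groups without overlap. Fewer arrays make this easier for any gene, and the shares over all genes are not given for these settings. The count of other pathway genes called on knockdown in ESC (3) was 5 after a second quantile normalization, 13 with array weights, 1 from the 6 ESC arrays alone, 1 with a replicate block on those arrays (another gene, since Fgf5 and Skil at 0.0599 and Ltbp4 at 0.128 lost their calls), 0 at an adjusted p under 0.01 and 0 to 8 with arrays left out (0 without control or knockdown ESC replicate 3, 1 without knockdown ESC replicate 1, 8 without control ESC replicate 1). The count for the difference of the knockdown effects (2) was 7 with array weights, 1 with a replicate block (Ltbp4 was lost at 0.0513), 0 at 0.01 and 0 to 6 with arrays left out. The causes were not tested. In NPC the knockdown count stayed 0, and between the states it was 41 to 47 (control) and 35 to 39 (knockdown) with arrays left out. Of the named genes, the replicate block ended no call between control NPC and ESC other than that of Tgfb1 (0.0548). Values near the arrays' background limit Lefty1, Lefty2 and Cer1 in NPC.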

Other observations

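Some members had their highest ESC array at the same replicate number in both groups. Replicate 1 was the highest array of both ESC groups for Lefty1 (10.06 with knockdown, 10.66 in control), for Lefty2 (9.27 and 8.71), for Smad7 (10.86 and 11.11) and for Cer1 (5.38 and 5.55). For Nodal it was replicate 3 (10.65 and 11.63). Tdgf1, Gdf3, Foxh1 and Acvr2b were highest at different numbers in the ESC groups. In NPC replicate 3 was the lowest array of both groups for Nodal (7.37 with knockdown, 6.74 in control), Lefty2 (4.80 and 4.20) and Gdf3 (6.43 and 6.29). For Lefty1 it was replicate 2 (6.33 and 5.23). The other members were lowest at different numbers in the NPC groups. Over all genes, same-numbered knockdown and control ESC arrays had deviations from their group means that correlated at 0.030, -0.026 and 0.092. For NPC arrays these correlations were -0.173, 0.192 and -0.171.

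Kdm5b itself was lower in NPC than in ESC in control cells (11.23 against 12.41). So were 7 of the 9 members, where 25.1% of all genes were called lower by limma's test. Kdm5b was not called between the states in knockdown cells (10.47 in NPC against 10.68 in ESC, limma adjusted p = 0.128).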
